A study of Homo sapiens with 12 samples.

Results

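The unfolded protein and amino-acid stress response was followed through 41 genes in A673 cells. A673 is an established line of Ewing sarcoma, a bone and soft tissue tumour, and expresses EWS-FLI1, a protein in which the N-terminal part of EWSR1 is joined to the ETS factor FLI1. Members were taken from a list by annotated symbol, with 1 probe set for each gene, the probe set of highest mean signal over the 12 arrays. All 41 were measured, of 18404 genes with such a probe set in all. They were 8 regulators and 4 stress effectors of the ATF4 branch, 5 amino-acid transporters, 6 enzymes of amino-acid or one-carbon metabolism, 4 sensors or factors of endoplasmic reticulum (ER) stress, 10 ER chaperones and 4 genes of ER-associated degradation.

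RNA was hybridized to Affymetrix Gene ST arrays in 6 groups of 2. FLI1 shRNA, a single lentiviral hairpin that lowers the fusion, was set against lacZ shRNA, a hairpin to a bacterial gene, and cells of both groups were selected in puromycin and labelled as 48 h. Actinomycin D, a DNA-binding drug, was given for 24 h at 5 nM or 50 nM and set against DMSO for 24 h, and an untreated group was taken at time 0. With 1 hairpin per target, loss of the fusion and an effect of the hairpin on other transcripts cannot be told apart, and native FLI1 and the fusion, which keeps the 3′ part of FLI1, were not separated by the array. The submitters describe the arrays of a group as duplicate experiments, so p-values measure only the spread between the arrays of a group, pooled over the 6 groups, which may be technical. Values are log2 signals, a change is a difference of group means in log2 units with its standard error (SE, n = 2 in each group), and "rose" or "fell" is kept for an adjusted p under 0.05 in limma, adjusted by Benjamini-Hochberg over all 18404 genes.

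Array medians lay between 6.67 and 6.83 and Pearson's r within a group was 0.994 to 0.996. The probe set of FLI1 read 7.30 and 7.08 after FLI1 shRNA, against 8.63 and 8.45 after lacZ shRNA, a fall of 1.35 ± 0.09 log2 units (adjusted p = 5.39e-06). Of 9 measured Ewing sarcoma markers 8 fell and 0 rose after FLI1 shRNA, where 9.28% of all genes fell. At 5 nM 4 fell and 1 rose, and at 50 nM 5 fell and 2 rose, where 23% and 23.3% of all genes fell. The markers include FLI1 itself, and some others are on the list of fusion-induced genes that the study drew from these arrays. Falls of these after FLI1 shRNA are not independent evidence. The mean log2 signal of the 9 markers was 10.070 to 10.077 after FLI1 shRNA, against 10.996 to 11.029 after lacZ shRNA. Of the markers of other cells, 3 of 5 blood markers rose at 5 nM and 4 of 5 at 50 nM. Of all genes 30.3% rose at 5 nM and 25.8% at 50 nM. The mean log2 signal of the blood markers was 5.64 to 5.85 in DMSO, 6.11 to 6.23 at 5 nM and 6.16 to 6.17 at 50 nM, below the array medians. PTPRC, the pan-leukocyte marker, stayed between 3.49 and 3.82 on all 12 arrays. Of 6 endothelial markers 3 rose at each dose, and of 7 epithelial markers 1 rose at 5 nM and 0 at 50 nM. After FLI1 shRNA 1 blood and 1 endothelial marker rose, the endothelial one being KDR (1.85), and 1 endothelial and 1 epithelial marker fell. The part of these signals in the results was not tested. In RNA of whole cultures, fewer cells of a type and less RNA per cell cannot be told apart.

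Misfolded protein in the ER is sensed by 3 membrane proteins: PERK, encoded by EIF2AK3, IRE1, encoded by ERN1, and ATF6. PERK phosphorylates the translation initiation factor eIF2, as the kinase GCN2 does when amino acids run short, and phosphorylated eIF2 favours translation of ATF4, a transcription factor that with C/EBP partners activates genes of amino-acid uptake and synthesis. IRE1 splices XBP1 mRNA and ATF6 is cleaved, and both products activate chaperone and degradation genes. Arrays measure mRNA, so eIF2 phosphorylation, ATF4 protein, XBP1 splicing and ATF6 cleavage were not measured here.

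Promoters of some members carry the short sequences through which these branches are known to act, and a few are printed here with the counts by class. RefSeq promoter windows of GRCh38.p14, 250 bases before the start base and 50 from it onward, were found for 37 members, and NUPR1, SLC7A11, PSPH and SHMT2 were without one. Both strands were searched for TGATGNAA (CARE, the ATF4 and C/EBP composite element), CCAAT and CCACG with 9 free bases between them (ERSE, the ER stress response element) and ATTGG and CCACG with 1 free base between them (ERSE-II), of which the last holds the CCAAT of an ERSE on the other strand. CARE was found in 7 members and in 4.46% of 27305 genes (3.62% of 35116 windows, since a gene can have several), ERSE in 6 members and 0.0916% of genes (0.0769% of windows), and ERSE-II in 2 members and 0.0696% of genes (0.0541% of windows). CARE lay in 3 of 4 amino-acid transporters and 1 of 4 enzymes with a window, in 1 of 7 ATF4-branch regulators, 1 of 4 stress effectors and 1 of 4 degradation genes, and in 0 of 10 chaperones, whereas ERSE lay in 5 of 10 chaperones and in no amino-acid gene with a window. HERPUD1 held both CARE and ERSE-II, and most members with a window held none of these motifs. A match describes the letters of a window and is not evidence that a factor bound there. ASNS, HSPA5 and HERPUD1 are shown for the 250 bases before the start and the others for 22 bases on either side of their motifs. With motifs in capitals, the stretches below run 5′ to 3′ on the strand of the gene, and the first 5 hold CARE: ASNS at chr7:97872409-97872658 (minus strand), SLC1A4 at chr2:64989370-64989421 (plus), SLC1A5 at chr19:46784882-46784933 (minus), CEBPG at chr19:33374049-33374100 (plus) and CHAC1 at chr15:40953240-40953291 (plus).
ASNS: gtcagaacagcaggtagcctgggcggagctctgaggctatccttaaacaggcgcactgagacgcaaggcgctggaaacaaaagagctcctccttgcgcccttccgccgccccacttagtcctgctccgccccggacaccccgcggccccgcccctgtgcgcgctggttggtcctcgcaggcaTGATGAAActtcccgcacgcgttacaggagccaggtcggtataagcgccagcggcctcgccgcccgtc
SLC1A4: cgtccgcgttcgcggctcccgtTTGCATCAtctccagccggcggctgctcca
SLC1A5: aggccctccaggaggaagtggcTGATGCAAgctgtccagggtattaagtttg
CEBPG: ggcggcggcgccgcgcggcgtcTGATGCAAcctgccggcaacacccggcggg
CHAC1: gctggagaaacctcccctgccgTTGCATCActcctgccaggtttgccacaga
The next 4 hold ERSE or ERSE-II, and HSP90B1 has ERSE in both orientations: HSPA5 at chr9:125241344-125241593 (minus), HSP90B1 at chr12:103930194-103930361 (plus), XBP1 at chr22:28800581-28800643 (minus) and SDF2L1 at chr22:21642092-21642146 (plus).
HSPA5: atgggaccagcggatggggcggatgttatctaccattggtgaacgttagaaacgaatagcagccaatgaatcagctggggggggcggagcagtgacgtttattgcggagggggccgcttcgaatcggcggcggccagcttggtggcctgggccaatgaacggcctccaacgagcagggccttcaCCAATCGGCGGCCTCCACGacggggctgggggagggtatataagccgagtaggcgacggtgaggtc
HSP90B1: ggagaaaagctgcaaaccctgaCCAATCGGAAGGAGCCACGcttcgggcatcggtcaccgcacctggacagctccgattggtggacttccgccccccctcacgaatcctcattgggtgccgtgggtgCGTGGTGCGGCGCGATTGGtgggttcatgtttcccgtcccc
XBP1: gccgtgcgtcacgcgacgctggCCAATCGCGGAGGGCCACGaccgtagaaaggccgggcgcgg
SDF2L1: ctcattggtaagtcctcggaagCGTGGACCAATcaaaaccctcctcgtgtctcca
HERPUD1, at chr16:56931892-56932141 (plus), holds CARE on the opposite strand and then ERSE-II.
HERPUD1: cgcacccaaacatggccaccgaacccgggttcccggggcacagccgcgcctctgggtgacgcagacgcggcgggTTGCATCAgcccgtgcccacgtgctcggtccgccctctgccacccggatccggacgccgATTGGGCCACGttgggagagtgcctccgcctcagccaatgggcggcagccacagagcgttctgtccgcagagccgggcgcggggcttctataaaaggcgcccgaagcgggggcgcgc

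The plot of changes by gene gives all 41 members. Of these 8 passed in none of the 3 treatments against their controls, and 5 of them were ER chaperones: CANX and CALR, the lectin chaperones of glycoprotein folding, HSP90B1, the ER Hsp90, PDIA6, a disulfide isomerase, and DNAJB11, a co-chaperone of BiP. The other 3 were the ATF4 relative ATF5, PHGDH and ERN1. With the trend of change with gene span removed, ERN1 passed at 5 nM (0.43, adjusted p = 0.00203) and at 50 nM (0.26, adjusted p = 0.0358). Under that removal DNAJB11 (-0.34, adjusted p = 0.0337) and CALR (-0.17, adjusted p = 0.0419) passed at 5 nM.

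**Figure D1:**
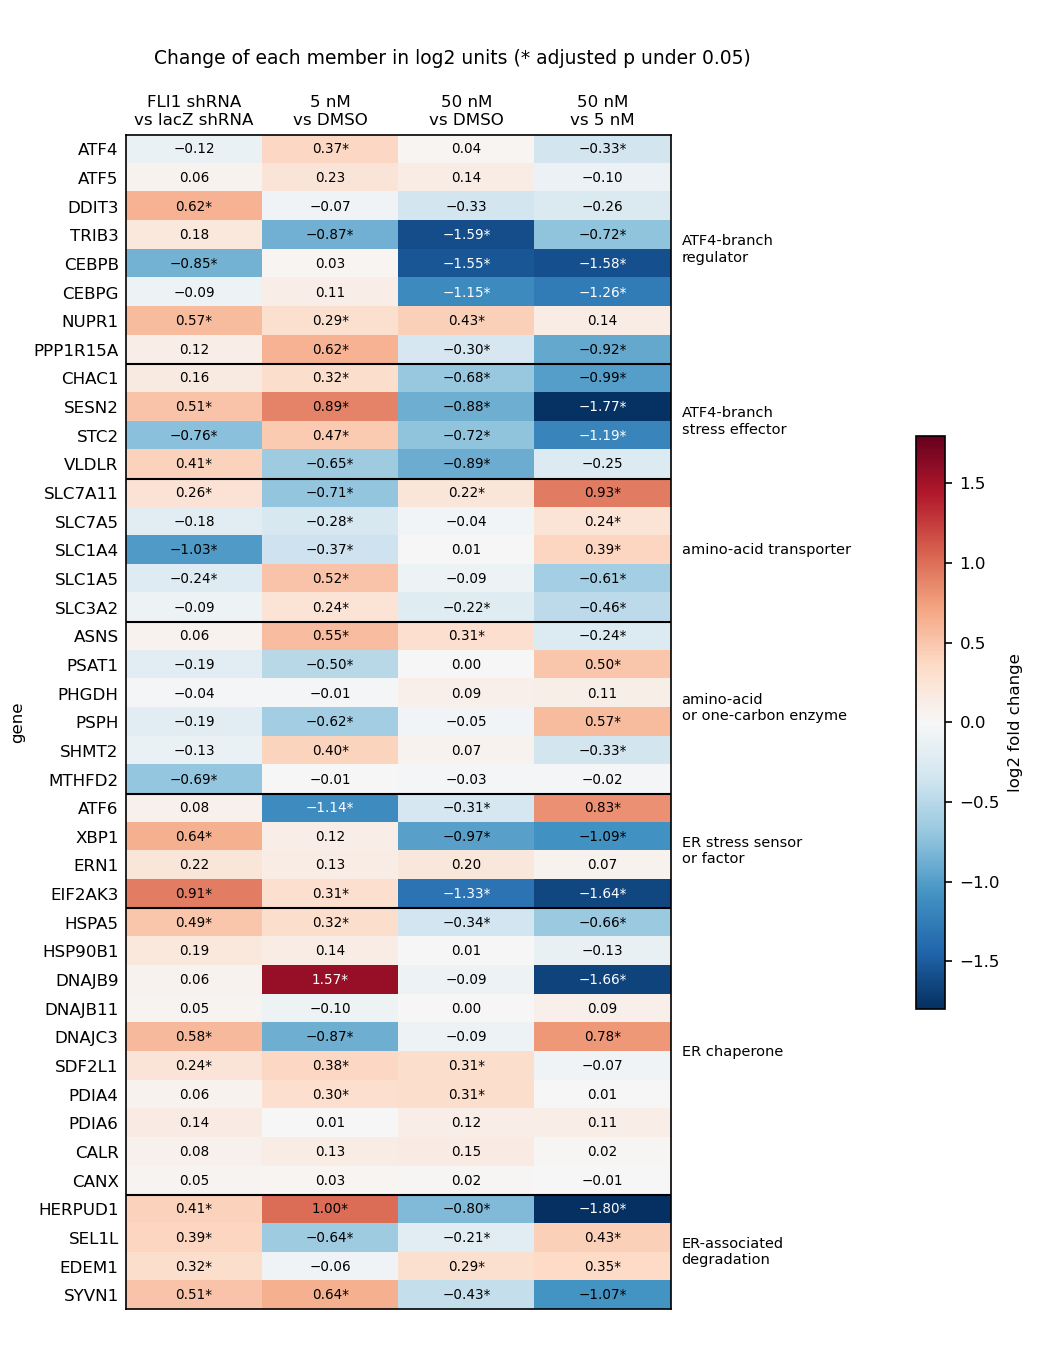
Log2 fold change of the 41 members (rows, grouped by role) in 4 comparisons (columns), coloured from blue (lower) to red (higher), with an asterisk at an adjusted p under 0.05. EIF2AK3 reads 0.91, 0.31, -1.33 and -1.64 from left to right, whereas CANX stays between -0.01 and 0.05.

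After FLI1 shRNA the genes that rose were mostly ER genes, with the PERK gene EIF2AK3 at 1.89-fold and the BiP gene HSPA5 at 1.41-fold, while the amino-acid genes SLC1A4 and MTHFD2 fell to 0.491 and 0.618 of lacZ shRNA. Of the 41 members 14 rose (34.1%) and 5 fell (12.2%), where 14.6% of all genes rose and 9.28% fell. At the study's thresholds, a fold over 2 and an adjusted p under 0.01, 0 members rose and 1 fell, with 1.21% and 0.598% of all genes. Of the 18 ER genes 9 rose and 0 fell, all 18 values lay above 0, and their median change was 0.23 (all genes, -0.01). All 4 genes of ER-associated degradation were among the risers, with a median of 0.40. The 10 chaperones had a median of 0.11, with 3 that rose. The 11 amino-acid genes had a median of -0.18, with 1 that rose and 3 that fell.

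Among the sensors, EIF2AK3 gave 7.90 and 7.81 after FLI1 shRNA, against 6.95 and 6.94 after lacZ shRNA, a rise of 1.89-fold (0.91 ± 0.07, adjusted p = 8.44e-06). Its untreated values, 7.31 and 7.30, lay between both groups, and EIF2AK3 was the 1 member that fell with lacZ shRNA against untreated (-0.36, adjusted p = 0.0245), a call lost without any 1 of those 4 arrays. XBP1, the factor activated by IRE1, read 10.95 and 11.05 after FLI1 shRNA, against 10.25 and 10.46 after lacZ shRNA and 10.44 and 10.38 untreated (1.56-fold against lacZ shRNA, 0.64 ± 0.09, adjusted p = 0.000329). The arrays of these genes did not overlap between the groups. ATF6 read 11.30 and 11.38 after FLI1 shRNA, against 11.26 on both lacZ arrays (untreated, 11.22 on both), and with a change of 0.08 did not pass (adjusted p = 0.467). ERN1 did not pass either (0.22, adjusted p = 0.0946).

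HSPA5, which encodes BiP, the main Hsp70 chaperone of the ER, read 12.60 on both arrays after FLI1 shRNA, against 12.10 and 12.11 after lacZ shRNA (untreated, 11.998 and 12.001), a rise of 1.41-fold (0.49 ± 0.06, adjusted p = 0.000226). DNAJC3, a co-chaperone of BiP also known as P58IPK, rose by 0.58 and SDF2L1 by 0.24, but DNAJC3 lost its call without lacZ shRNA replicate 2 and SDF2L1 without any 1 of the 4 arrays. The other 7 chaperones changed by 0.05 to 0.19, and none passed. Among them DNAJB9 read 8.03 and 8.11 after FLI1 shRNA, against 8.13 and 7.88 after lacZ shRNA and 7.62 and 7.95 untreated, with overlapping arrays. SYVN1, which encodes the ubiquitin ligase HRD1, read 9.77 and 9.81 after FLI1 shRNA, against 9.30 and 9.25 after lacZ shRNA and 9.39 and 9.48 untreated (1.42-fold, adjusted p = 0.00046). HERPUD1, a membrane protein of the same degradation complex, read 11.28 and 11.30 after FLI1 shRNA, against 10.88 on both lacZ arrays and 11.06 and 11.07 untreated (1.33-fold, adjusted p = 0.00107). SEL1L, the adaptor of HRD1, and EDEM1, a lectin that marks misfolded glycoproteins, rose by 0.39 and 0.32. The call of EDEM1 was lost without either FLI1 shRNA array or without lacZ shRNA replicate 2.

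ATF4 mRNA read 10.66 and 10.68 after FLI1 shRNA, against 10.76 and 10.80 after lacZ shRNA and 10.73 and 10.66 untreated, and did not pass (-0.12 ± 0.07, adjusted p = 0.244). Averaged with a second ATF4 probe set it fell by 0.28 (adjusted p = 0.0272), so its call depends on the probe set. DDIT3, which encodes CHOP, a pro-apoptotic factor induced by ATF4, read 10.21 and 10.50 after FLI1 shRNA, against 9.78 and 9.68 after lacZ shRNA and 9.47 and 9.62 untreated (1.54-fold, adjusted p = 0.00551), and without FLI1 shRNA replicate 2 its change was 0.48 (adjusted p = 0.0578). SESN2, a sestrin that restrains mTORC1, read 8.88 and 8.87 after FLI1 shRNA, against 8.44 and 8.31 after lacZ shRNA and 8.62 and 8.57 untreated (1.42-fold, adjusted p = 0.000829). NUPR1, a stress-induced chromatin protein, and VLDLR, a lipoprotein receptor, rose by 0.57 and 0.41, and VLDLR lost its call without replicate 1 of either group. Against these rises, CEBPB, the bZIP partner of ATF4, read 9.81 and 9.84 after FLI1 shRNA, against 10.66 and 10.70 after lacZ shRNA and 10.75 and 10.69 untreated (0.553-fold, adjusted p = 8.84e-06). STC2, a secreted stanniocalcin, read 6.92 and 7.01 after FLI1 shRNA, against 7.83 and 7.62 after lacZ shRNA and 7.51 and 7.68 untreated (0.592-fold, adjusted p = 0.00221). TRIB3, a pseudokinase that represses ATF4 activity, read 9.98 and 10.07 after FLI1 shRNA, against 9.85 and 9.83 after lacZ shRNA and 9.89 and 9.87 untreated, and did not pass (0.18, adjusted p = 0.127). CEBPG, another bZIP partner, read 9.36 and 9.37 after FLI1 shRNA, against 9.49 and 9.42 after lacZ shRNA and 9.52 and 9.63 untreated, and did not pass. ATF4-branch genes thus moved both ways after FLI1 shRNA, 4 up and 2 down of 12.

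Of the amino-acid genes, SLC1A4, the neutral amino-acid transporter ASCT1, read 9.87 and 9.93 after FLI1 shRNA, against 10.89 and 10.96 after lacZ shRNA and 10.74 on both untreated arrays (0.491-fold, -1.03 ± 0.06, adjusted p = 3.07e-06). It is on the list of fusion-induced genes that the study drew from these arrays, so its fall here is not independent evidence. MTHFD2, a mitochondrial enzyme of one-carbon metabolism, read 10.67 and 10.71 after FLI1 shRNA, against 11.40 and 11.37 after lacZ shRNA and 11.31 and 11.30 untreated (0.618-fold, adjusted p = 0.000126). SLC1A5, the glutamine transporter ASCT2, fell by 0.24 (adjusted p = 0.0455) and lost the call without any 1 of the 4 arrays. SLC7A11, the cystine transporter, rose by 0.26, a call lost without either FLI1 shRNA array or without lacZ shRNA replicate 2. The other 7, with the serine synthesis enzymes PHGDH, PSAT1 and PSPH and asparagine synthetase (ASNS) among them, changed by -0.19 to 0.06, and none passed.

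**Figure D2:**
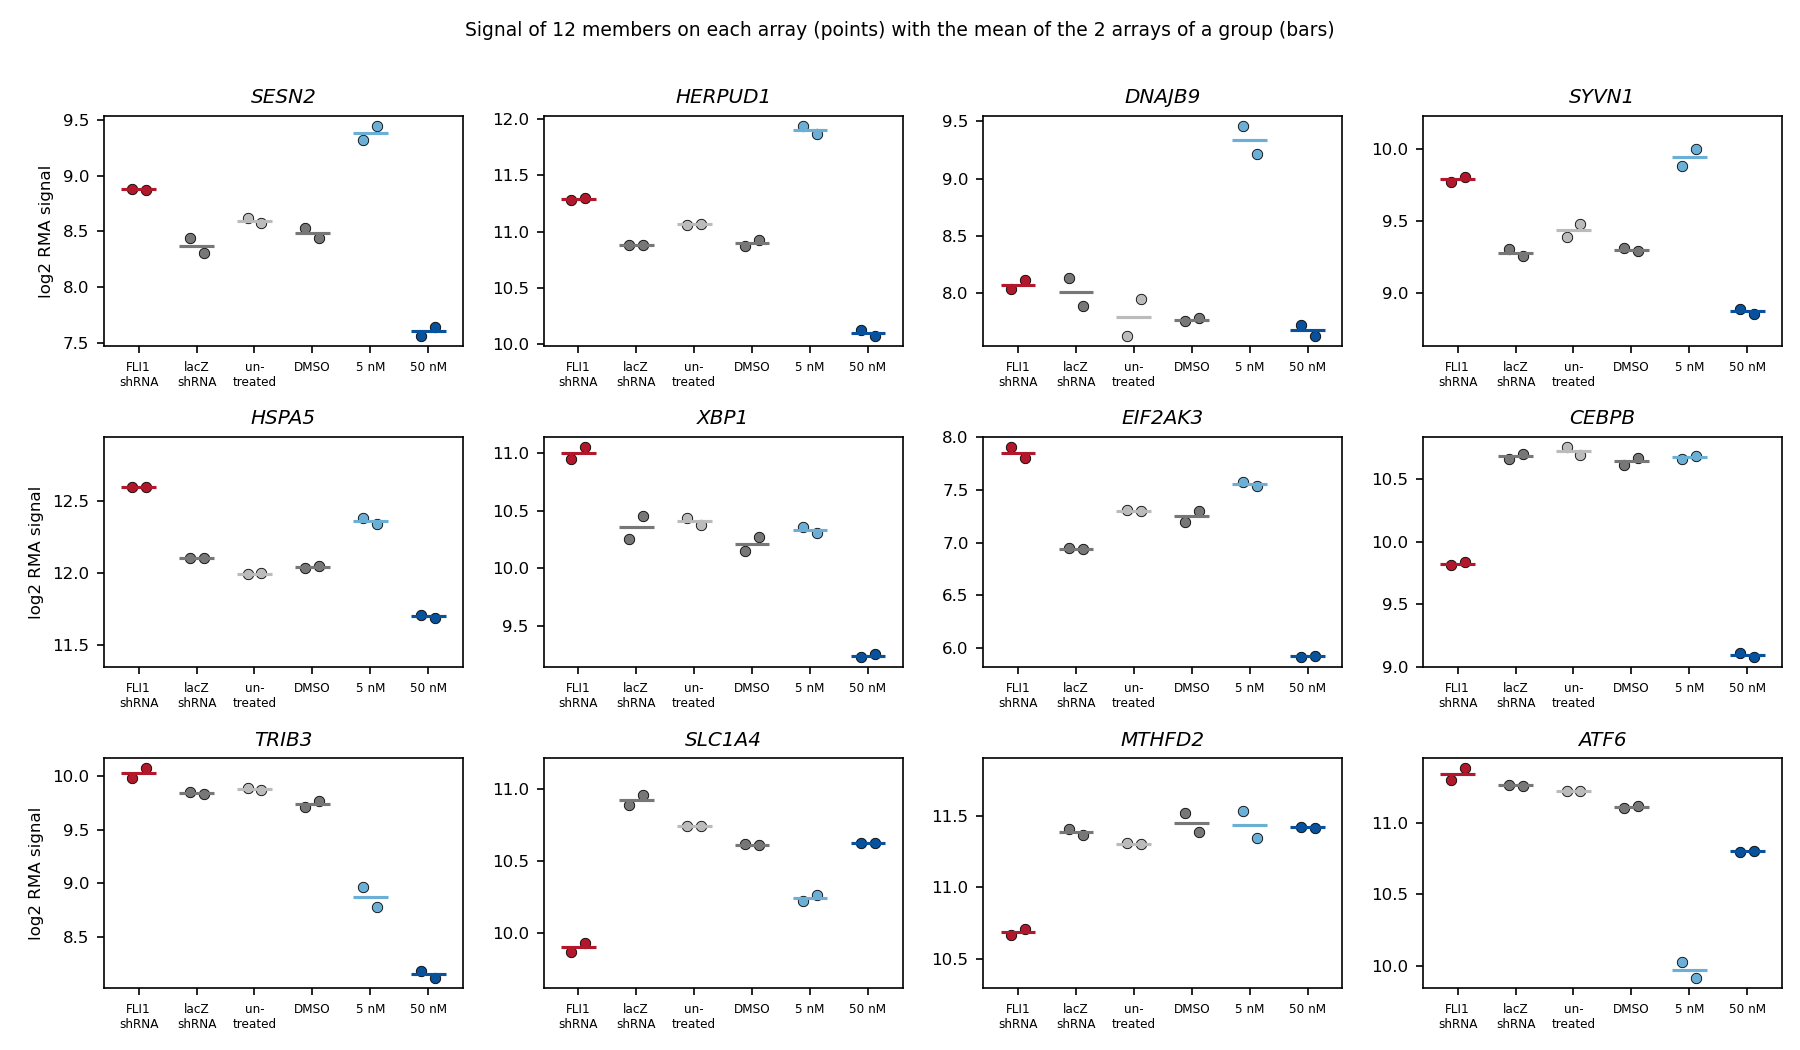
Log2 RMA signal (y axis, a range of its own in each panel) of 12 members on every array (points, 2 in each group) with the group mean as a bar. After FLI1 shRNA, HSPA5 read 12.60 on both arrays, against 12.10 and 12.11 after lacZ shRNA, and DNAJB9 at 5 nM, with 9.46 and 9.21, stood above every other array.

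At 5 nM actinomycin D members rose and fell within each role, with DNAJB9 at 2.96-fold and ATF6 at 0.455-fold of DMSO. Of the 41 members 17 rose (41.5%) and 10 fell (24.4%), where 30.3% of all genes rose and 23% fell. Beyond the study's thresholds 2 members rose and 1 fell, against 2.64% and 7.86% of all genes. The median of all genes was 0.12 at 5 nM and 0.10 at 50 nM, and became -0.16 and -0.05 when arrays were centred on 56 ribosomal protein genes. That scaling left 7 members that rose and 18 that fell at 5 nM, so a small rise at 5 nM holds only relative to the rest of the array. The shares of all genes given above are without this centring, and these counts do not read against them. Before centring, 39 of the 56 ribosomal protein genes rose and 0 fell at 5 nM, with a median of 0.28. They are short, with a median of 5.03 kb from first to last base, and neither scaling gives an absolute level. In both scalings DNAJB9, HERPUD1, SESN2, SYVN1, PPP1R15A, ASNS and SLC1A5 rose. ER chaperones had a median change of 0.13 (-0.14 with ribosomal protein centring), with 4 that rose and 1 that fell, and the amino-acid genes a median of -0.01 (-0.29 with that centring), with 4 that rose and 5 that fell.

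The dose series is given from DMSO to 50 nM. DNAJB9, the ER co-chaperone ERdj4 and a target of XBP1, read 7.75 and 7.78 in DMSO, 9.46 and 9.21 at 5 nM, and 7.72 and 7.63 at 50 nM. Its rise of 2.96-fold at 5 nM (1.57 ± 0.12, adjusted p = 1.46e-06) was larger than that of any other member, and at 50 nM it did not pass (-0.09, adjusted p = 0.551). HERPUD1 read 10.87 and 10.93 in DMSO, 11.94 and 11.87 at 5 nM, and 10.13 and 10.07 at 50 nM, a rise of 1.00 ± 0.07 at 5 nM (adjusted p = 3.6e-07) and a fall of 0.80 at 50 nM (adjusted p = 3.72e-06). In SESN2 the values were 8.53 and 8.44 in DMSO, 9.32 and 9.44 at 5 nM, and 7.56 and 7.64 at 50 nM, with changes of 0.89 at the lower dose and -0.88 at the higher. SYVN1 read 9.31 and 9.29 in DMSO, 9.88 and 10.00 at 5 nM, and 8.89 and 8.85 at 50 nM, a rise of 0.64 (adjusted p = 1.95e-05) and a fall of 0.43 (adjusted p = 0.00065). HERPUD1, SESN2 and SYVN1 stood above DMSO at 5 nM and below it at 50 nM with no overlap of arrays.

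HSPA5 and EIF2AK3 likewise lay above DMSO at 5 nM and below it at 50 nM. HSPA5 read 12.04 and 12.05 in DMSO, 12.38 and 12.35 at 5 nM, and 11.71 and 11.69 at 50 nM, a rise of 0.32 at 5 nM and a fall of 0.34 at 50 nM. EIF2AK3 read 7.20 and 7.30 in DMSO, 7.58 and 7.54 at 5 nM, and 5.92 and 5.93 at 50 nM. Its fall at 50 nM was to 0.399 of DMSO (adjusted p = 1.97e-07). Both rises at 5 nM lost the call with ribosomal protein centring (HSPA5 0.04, adjusted p = 0.642, and EIF2AK3 0.03, adjusted p = 0.779), and that of HSPA5 also with the trend in gene span removed (0.02, adjusted p = 0.801), where EIF2AK3 kept it (0.52), whereas both falls at 50 nM kept it.

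ATF6 and TRIB3 went the other way at 5 nM. ATF6 read 11.10 and 11.12 in DMSO, 10.03 and 9.92 at 5 nM, and 10.80 on both arrays at 50 nM, a fall to 0.455 of DMSO at 5 nM (-1.14 ± 0.07, adjusted p = 1.88e-07) and by 0.31 at 50 nM. TRIB3 read 9.71 and 9.77 in DMSO, 8.97 and 8.78 at 5 nM, and 8.18 and 8.12 at 50 nM, falls to 0.547 and 0.331 of DMSO. DNAJC3 fell by 0.87 at 5 nM, SEL1L by 0.64, VLDLR by 0.65 and the transporter SLC7A11 by 0.71. ATF4 read 10.73 and 10.71 in DMSO, 11.12 and 11.05 at 5 nM, and 10.75 and 10.76 at 50 nM. It rose by 0.37 at 5 nM (adjusted p = 0.00068), a change that was 0.09 with ribosomal protein centring (adjusted p = 0.339) and 0.10 with the trend in gene span removed (adjusted p = 0.25), and did not pass at 50 nM. The second ATF4 probe set, of lower mean signal, changed more, by 0.79 at 5 nM and 0.26 at 50 nM.

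Within the amino-acid genes at 5 nM, ASNS rose by 0.55, SLC1A5 by 0.52, SHMT2, the mitochondrial serine hydroxymethyltransferase, by 0.40, and SLC3A2, the heavy chain shared by several transporters, by 0.24. PSPH fell by 0.62, PSAT1 by 0.50, SLC1A4 by 0.37 and SLC7A5, the leucine transporter LAT1, by 0.28. SLC3A2 and SHMT2 lost their calls with ribosomal protein centring, and SLC3A2 also without DMSO replicate 2 or without either 5 nM array. Of the 3 enzymes of serine synthesis, PSAT1 and PSPH thus fell and PHGDH did not pass (-0.01, adjusted p = 0.876). SLC1A4 read 10.62 and 10.61 in DMSO, 10.22 and 10.26 at 5 nM, and 10.62 on both arrays at 50 nM.

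At 50 nM most genes of the ATF4 branch fell, with TRIB3 at 0.331-fold and CEBPB at 0.342-fold of DMSO, whereas most amino-acid genes and chaperones did not pass. In the paper's RT-PCR, done after overnight treatment and not at the 24 h of the arrays, 50 nM lowered NR0B1 and the control transcripts to a similar degree. Array values are normalized, so calls at 50 nM are relative to the other genes, and a loss common to all genes was not measured. Of the 41 members 6 rose (14.6%) and 16 fell (39%), where 25.8% of all genes rose and 23.3% fell. With ribosomal protein centring 1 member rose and 18 fell, counts that do not read against those shares, which are without it. Beyond the study's thresholds 0 rose and 4 fell, against 0.598% and 5.38% of all genes, and the 4 were TRIB3, CEBPB, CEBPG and EIF2AK3. Of the 12 ATF4-branch regulators and effectors 8 fell and 1 rose, with a median of -0.70. The 11 amino-acid genes, 2 up and 1 down, had a median of 0.00 (-0.15 with ribosomal protein centring), and the 10 chaperones, 2 up and 1 down, a median of 0.01 (-0.13 with that centring).

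CEBPB read 10.61 and 10.67 in DMSO, 10.66 and 10.68 at 5 nM, and 9.11 and 9.08 at 50 nM, a fall to 0.342 of DMSO at 50 nM (-1.55 ± 0.07, adjusted p = 6.23e-08). CEBPG read 9.52 and 9.74 in DMSO, 9.73 and 9.74 at 5 nM, and 8.36 and 8.59 at 50 nM, a fall to 0.45 of DMSO. XBP1 read 10.15 and 10.28 in DMSO, 10.36 and 10.31 at 5 nM, and 9.23 and 9.25 at 50 nM, a fall to 0.51 of DMSO (adjusted p = 6.26e-06). These 3 transcription factor genes did not pass at 5 nM, although CEBPB fell there by 0.24 with ribosomal protein centring, and had no overlap of arrays between 50 nM and DMSO. STC2 read 7.68 and 7.54 in DMSO, 8.15 and 8.00 at 5 nM, and 7.10 and 6.68 at 50 nM. It rose by 0.47 at 5 nM (adjusted p = 0.0138), a call lost without DMSO replicate 2 or 5 nM replicate 1, with ribosomal protein centring (0.19, adjusted p = 0.249) and with the trend in gene span removed (0.22, adjusted p = 0.213), and fell by 0.72 at 50 nM (adjusted p = 0.00141). DDIT3 read 9.45 and 9.29 in DMSO, 9.48 and 9.12 at 5 nM, and 9.06 and 9.02 at 50 nM, and with -0.33 at 50 nM did not pass (adjusted p = 0.0583), although it passed in 5 of the alternatives, ribosomal protein centring included (-0.47, adjusted p = 0.00795). PPP1R15A, which encodes the eIF2 phosphatase subunit GADD34, rose by 0.62 at 5 nM. It read 9.95 and 9.96 at 5 nM, against 9.15 and 9.51 in DMSO and 9.75 and 9.86 untreated. DMSO against untreated was -0.47 and did not pass (adjusted p = 0.414). At 50 nM PPP1R15A fell by 0.30, a call lost without DMSO replicate 2 or without either 50 nM array. The 6 that rose at 50 nM were NUPR1 (0.43), SDF2L1 and PDIA4 (0.31 each), ASNS (0.31), EDEM1 (0.29) and SLC7A11 (0.22), of which NUPR1 alone rose with ribosomal protein centring too. SLC7A11 and EDEM1 also lost these calls without DMSO replicate 2 or 50 nM replicate 1, and EDEM1 without 50 nM replicate 2.

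**Figure D3:**
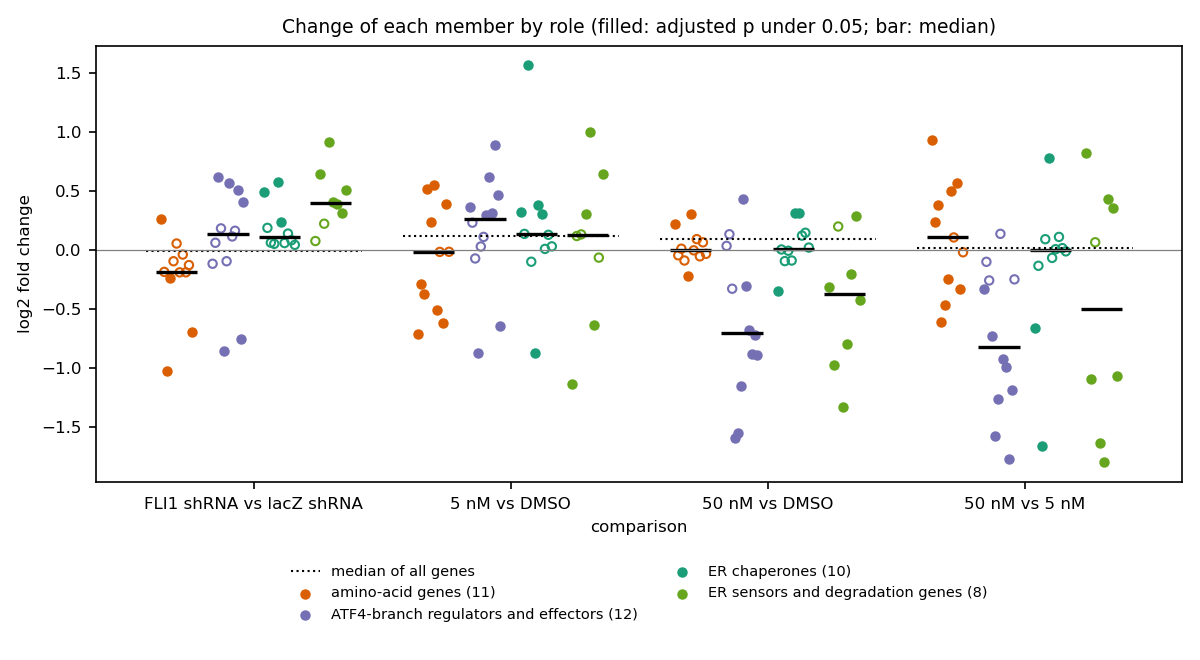
Log2 fold change (y axis) of each member (points, filled at an adjusted p under 0.05) in 4 comparisons (x axis), split into amino-acid genes (11), ATF4-branch regulators and effectors (12), ER chaperones (10) and ER sensors and degradation genes (8), with the median of each class as a bar and that of all genes as a dotted line. After FLI1 shRNA the amino-acid genes have a median of -0.18 and the chaperones one of 0.11, and at 50 nM the ATF4 branch has a median of -0.70.

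Set directly against each other, 50 nM gave lower values than 5 nM in 18 members (43.9%) and higher values in 9 (22%), where 23.1% of all genes were lower and 21.6% higher. Beyond the study's thresholds 9 members were lower and 0 higher, with 6.65% and 4.33% of all genes. The 9 were HERPUD1 (0.287-fold), SESN2 (0.292-fold), DNAJB9 (0.316-fold), EIF2AK3 (0.322-fold), CEBPB (0.335-fold), CEBPG (0.416-fold), STC2 (0.439-fold), XBP1 (0.469-fold) and SYVN1 (0.476-fold). Of the ATF4-branch regulators and effectors, 8 of 12 were lower and 0 higher, whereas the amino-acid genes were split, 5 higher and 4 lower. The higher ones were SLC7A11 (1.91-fold), PSPH (1.48-fold), PSAT1 (1.42-fold), SLC1A4 (1.31-fold) and SLC7A5 (1.18-fold), and the lower ones SLC1A5 (0.656-fold), SLC3A2 (0.725-fold), SHMT2 (0.796-fold) and ASNS (0.845-fold). Among the ER genes, ATF6 (1.78-fold), DNAJC3 (1.72-fold), SEL1L (1.35-fold) and EDEM1 (1.28-fold) were higher at 50 nM. The calls of SLC7A5, ASNS and EDEM1 were lost without 50 nM replicate 2, that of ASNS also without 5 nM replicate 1 and that of EDEM1 without 5 nM replicate 2.

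The changes after FLI1 shRNA and at 5 nM come from 8 separate arrays and were tested against each other. Their difference passed for 25 members, 12 higher (29.3%) and 13 lower (31.7%) in the change after FLI1 shRNA, where 22.8% and 23.7% of all genes passed. With ribosomal protein centring the split was 21 higher and 6 lower, counts that do not read against those shares, which are without it. That centring moved the median of all genes from -0.01 to 0.06 after FLI1 shRNA and from 0.12 to -0.16 at 5 nM. DNAJC3 (0.58 after FLI1 shRNA and -0.87 at 5 nM), ATF6 (0.08 and -1.14), VLDLR (0.41 and -0.65), TRIB3 (0.18 and -0.87), SEL1L (0.39 and -0.64) and SLC7A11 (0.26 and -0.71) differed most toward FLI1 shRNA, by 0.98 to 1.45 log2 units. DNAJB9 (0.06 and 1.57), STC2 (-0.76 and 0.47), CEBPB (-0.85 and 0.03), SLC1A5 (-0.24 and 0.52) and MTHFD2 (-0.69 and -0.01) differed most the other way, by -0.68 to -1.50. Members that rose in both were 7, NUPR1, SESN2, EIF2AK3, HSPA5, SDF2L1, HERPUD1 and SYVN1, out of 14 and 17 risers, or 17.1% of members, where 5.27% of all genes rose in both. With ribosomal protein centring 3 remained, SESN2, HERPUD1 and SYVN1, or 7.32% of members and 3.55% of all genes, and the rise of SDF2L1 after FLI1 shRNA was lost without any 1 of its 4 arrays. SLC1A4 alone fell in both, or 2.44% of members, where 3.72% of all genes fell in both. For HSPA5 and SYVN1 the difference did not pass (0.17 ± 0.09, adjusted p = 0.125, and -0.14 ± 0.10, adjusted p = 0.286).

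The amino-acid genes and the chaperones were set against each other on each array by the mean log2 signal of the first minus that of the second, a gap that a shift of the whole array cannot move and whose zero has no meaning. The gap was 0.356 and 0.359 after FLI1 shRNA, against 0.763 and 0.788 after lacZ shRNA. In the dose series it was 0.806 and 0.733 in DMSO, 0.510 and 0.497 at 5 nM, and 0.753 and 0.753 at 50 nM, and it was 0.799 and 0.762 in untreated cells. It was thus narrower after FLI1 shRNA and at 5 nM than on any other array, while 50 nM lay within the range of DMSO. After FLI1 shRNA the amino-acid mean was 11.17 ± 0.02 and the chaperone mean 10.81 ± 0.01, against 11.39 ± 0.01 and 10.61 ± 0.03 after lacZ shRNA (SD, n = 2 each). Single genes weighed on it, and genes were left out by a choice made after their values were seen. With SLC1A4 left out the gap was 0.484 after FLI1 shRNA, against 0.822 after lacZ shRNA, and with DNAJB9 left out it was 0.345 at 5 nM, against 0.458 in DMSO, whose arrays were at 0.494 and 0.421. With DNAJC3 left out it was 0.175 at 5 nM, against 0.558 in DMSO. No p is given for these means, since the genes were chosen with results of these arrays known.

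The control groups were compared in the same fit. With DMSO against untreated 0 members passed in limma, where 0.00543% of all genes rose and 0% fell, and at an unadjusted p under 0.05 there were 2 higher (4.88%) and 6 lower (14.6%), where 4.03% and 3.48% of all genes were. With lacZ shRNA against untreated 0 members rose and EIF2AK3 fell, where 0.815% of all genes rose and 2.26% fell. At an unadjusted p under 0.05 there were 7 higher (17.1%) and 5 lower (12.2%), where 5.79% and 11% of all genes were. The median of this comparison over all genes moved to -0.16 with ribosomal protein centring. Under that centring 10 members (24.4%) and 17.3% of all genes fell.

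Changes at 5 nM went with the span of the gene, the distance from its first to its last base in RefSeq. Across the 41 members Spearman's rho between span and change was -0.52 at 5 nM, as it was across 16897 protein-coding genes, and at 50 nM it was 0.14 in the members and -0.29 in all. These are descriptions across genes of the same arrays, and genes are not independent replicates. ATF6, with 198 kb the longest member, fell by 1.14 at 5 nM, and DNAJC3, with 118 kb, by 0.87, whereas DNAJB9 spans 4.98 kb and HERPUD1 12.7 kb. Not every long member fell, and ASNS, with 76.8 kb, rose by 0.55 and EIF2AK3, with 71.4 kb, by 0.31. With the trend in span removed 9 members rose and 15 fell at 5 nM. DNAJB9, HERPUD1, SESN2, SYVN1, ASNS and EIF2AK3 were still among the first and ATF6, DNAJC3 and TRIB3 among the second. The shares of all genes given for 5 nM are without this removal, and these counts do not read against them. TRIB3, with a span of 16.8 kb, stood below genes of its length at both doses.

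The wider pathway was read through 4 further lists chosen from general knowledge. Of 19 measured aminoacyl-tRNA synthetases, which charge tRNAs and several of which are ATF4 targets, 1 rose and 0 fell after FLI1 shRNA. At 5 nM 1 rose and 12 fell, with a median of -0.32, and AARS1 fell by 2.04 and CARS1 by 1.06, whereas QARS1 rose by 0.40. At 50 nM 3 rose and 6 fell. XPOT, a tRNA export receptor on the same list and not counted here, fell by 0.52 at 5 nM. Of 18 other ATF4 targets 6 rose and 2 fell after FLI1 shRNA, led by SESN3 (2.02), a relative of SESN2, and GDF15 (1.68), a stress-induced cytokine. At 5 nM 8 of them rose and 4 fell, with GADD45A at 1.40 and SLC7A1, the cationic amino-acid transporter CAT1, at -1.46, and GDF15 at -0.71, and at 50 nM 5 rose and 5 fell.

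Of 32 other genes of ER folding and degradation 13 rose and 1 fell after FLI1 shRNA, with a median of 0.25, among them ERO1B, an ER oxidase (1.12), and SEC24D, a coat protein of vesicles that leave the ER (0.96). At 5 nM 14 rose and 9 fell, and at 50 nM 13 rose and 3 fell. Of 16 eIF2 kinases, eIF2 subunits or exchange factors and other ER sensors 6 rose and 0 fell after FLI1 shRNA, with the ER-bound factors CREB3L1 at 1.82 and CREB3L2 at 1.22. At 5 nM 5 rose and 8 fell, and EIF2AK4, which encodes GCN2, fell by 1.56. At 50 nM 2 rose and 3 fell. These counts read against the shares of all genes given above for each comparison.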

How the data were processed

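RNA of A673 cells was measured on 12 Affymetrix Gene ST arrays. The deposited log2 values were made by the authors with background correction and RMA normalization (the affy package, version not given in the sources used here), and all 12 value columns were used. Of 32321 probe sets, 19158 carried a single gene symbol in the platform annotation, and 1 was kept for each of 18404 genes. Group means were fitted on all 12 arrays with limma 3.58.1 in R 4.3.3 (6 residual and 4.45 prior degrees of freedom), with Benjamini-Hochberg adjustment over all genes, and the code was tested on simulated data. Every array's value was given for members with a log2 fold change of at least 1 in size at an adjusted p under 0.05 in any of the 4 treatment comparisons, and for ATF4, DDIT3, XBP1, HSPA5 and ATF6 (MTHFD2 was added, for the knock-down and untreated arrays, after its values were seen). From each further list up to 2 of the largest rises and falls were named. The members and lists were chosen with earlier results of these data known. Array number limits precision. Alternatives are given in the closing section. Promoters and spans came from RefSeq on GRCh38.p14, and the build of the probe annotation was not used.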

Additional observations from a re-analysis of the deposited data

How the results depend on the processing

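At an adjusted p under 0.05, the calls that passed in every alternative fit that tested them, each array left out included and the crossed block apart, were 12 of 19 after FLI1 shRNA, 17 of 27 at 5 nM, 14 of 22 at 50 nM and 24 of 27 for 50 nM against 5 nM. With dim genes left out 1 member was not tested. With 2 arrays a group, leaving 1 out leaves a lone array that is assumed to vary like the other groups, and small changes are beyond the reach of this design. Where values moved, the cause was not tested.

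At the study's thresholds the members that rose and fell were 0 and 1 after FLI1 shRNA, 2 and 1 at 5 nM, 0 and 4 at 50 nM, 0 and 9 for 50 nM against 5 nM, and 0 fell with lacZ shRNA against untreated. With a trended and robust prior 8 fell after FLI1 shRNA. Ribosomal protein centring gave 7 that rose and 18 that fell at 5 nM, 1 that rose at 50 nM, and 21 higher and 6 lower for FLI1 shRNA minus 5 nM. With the trend in span removed 9 rose at 5 nM. The shares of all genes given for the main fit do not apply under ribosomal protein centring or with the span trend removed. For lacZ shRNA against untreated, 6 rose and 4 fell with the trended and robust prior, 2 rose after quantile normalization, 4 rose and 3 fell with dim genes left out, 10 fell with ribosomal protein centring, 3 rose and 3 fell with a crossed block, 0 fell with only the arrays of the comparison, and 0 to 0 fell with 1 array left out.

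After FLI1 shRNA the amino-acid median was -0.12 with ribosomal protein centring and -0.19 to -0.12 with 1 array left out, and the chaperone median was 0.175 and 0.099 to 0.17. At 5 nM the amino-acid median was -0.16 after quantile normalization, -0.29 with ribosomal protein centring, -0.22 with the span trend removed, -0.13 relative to all genes and -0.105 to 0.0532 with 1 array left out. The chaperone median was 0.0296, -0.14, 0.0671 and 0.0158 under the first 4 of these. At 50 nM the amino-acid median was -0.15 with ribosomal protein centring, -0.0507 with the span trend removed, -0.10 relative to all genes and -0.0376 to 0.0342 with 1 array left out. The chaperone median there was 0.0704 after quantile normalization, -0.13 with ribosomal protein centring, -0.0836 relative to all genes and 0.0083 to 0.0856 with 1 array left out. For 50 nM against 5 nM ribosomal protein centring gave 0.24 for the amino-acid genes and 0.13 for the chaperones, whose median was -0.0315 to 0.0206 with 1 array left out.

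Of the members given on every array, ATF4 at 50 nM became -0.19 with the span trend removed (adjusted p = 0.0371), and CEBPB at 5 nM became -0.24 with ribosomal protein centring (adjusted p = 0.0242) and -0.24 with the span trend removed (adjusted p = 0.0101). DDIT3 at 5 nM did not pass in the main fit (-0.07, adjusted p = 0.669). It became -0.35 with ribosomal protein centring (adjusted p = 0.0324) and -0.37 with the span trend removed (adjusted p = 0.0339). The replicate numbers did not pair the arrays: same-numbered arrays correlated in their deviations at -0.453 to 0.174. With the replicate number as a block 14 rose and 4 fell after FLI1 shRNA, 17 and 10 at 5 nM, 6 and 15 at 50 nM, 9 and 18 for 50 nM against 5 nM, and 11 were higher and 13 lower for FLI1 shRNA minus 5 nM. A crossed block, chosen after seeing the data, gave 14 and 5 after FLI1 shRNA.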
